A study of Rattus norvegicus with 8 samples.

Results

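The genes described here are 34 structural genes of the cardiac sarcomere and its Z-disc, chosen as a list and matched to the array through the platform annotation. A gene counted as measured when at least 1 probe set (a group of array probes for 1 transcript) carried its symbol and no other. By that rule 33 of the 34 genes were measured, with 76 of the 31042 probe sets of the array, and where a gene had several, the one brightest on average over the 8 arrays stood for it. The genes were grouped as thick filament (8 genes), thin filament (9 of 10 measured), titin and M-band (3) and Z-disc (13). The cardiac actin gene Actc1 is not reported, because its 5 probe sets are annotated to the smooth muscle actin gene Acta2 as well. In all, 14217 genes had a probe set with a single symbol.

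The hearts came from male Wistar rats and were perfused for 2 h in a Langendorff apparatus in which the perfusate was not recirculated, a set-up in which an excised heart is fed through the aorta. The doxorubicin group (n = 4) received 2 µM doxorubicin, an anthracycline anticancer drug, and the control group (n = 4) received none. Each array is labelled as a biological replicate, and the labels name no other treatment in either group. The hearts were excised, so they model a short, direct exposure of the organ and not of the animal.

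The sarcomere is the contractile unit of striated muscle. Thick filaments of myosin pull on thin filaments of actin, which carry the calcium switch of troponin and tropomyosin. Titin spans from the Z-disc, where thin filaments of neighbouring sarcomeres are anchored, to the M-band, where thick filaments are cross-linked. Z-disc proteins such as filamin C, desmin and the LIM-domain proteins link this lattice to the cell membrane and are known for roles in sensing mechanical load. In the rodent heart the adult isoforms Myh6 and Tnni3 replace the fetal or slow isoforms Myh7 and Tnni1 after birth. A partial return of Myh7 is a known feature of chronic overload.

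Of the 33 measured genes, each read by the probe set that stands for it, filamin C (Flnc) alone changed between the groups. In doxorubicin hearts it fell by 1.83 on the log2 scale (3.56-fold, SE 0.15, limma adjusted p = 2.09e-04). None of the genes rose, and the other 32 did not pass the test. The test requires a limma p-value under 0.05 after Benjamini-Hochberg adjustment over all 31042 probe sets. Here and below, a gene or probe set is said to have changed, risen or fallen if it passed. Not passing does not show that a level stayed the same. Over all 14217 genes, 2.97% passed in either direction, 2.17% lower and 0.802% higher. The share of 3.03% among the 33 genes was near that of the whole array. The list was chosen with earlier results of these data known, and a second list of sarcomere genes is given below. The share therefore describes these 33 genes and cannot be read as a result about sarcomere and Z-disc genes in general. At an unadjusted p under 0.05, 3 of the 33 genes were lower and none higher. Of all 14217 genes, 1005 were lower and 1375 higher at that limit, 16.7% in either direction. The median difference of the 33 genes was -0.03 log2, against 0.0063 for all genes. Of the 33 differences 20 were negative, against 6842 of 14217 over all genes.

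**Figure D1:**
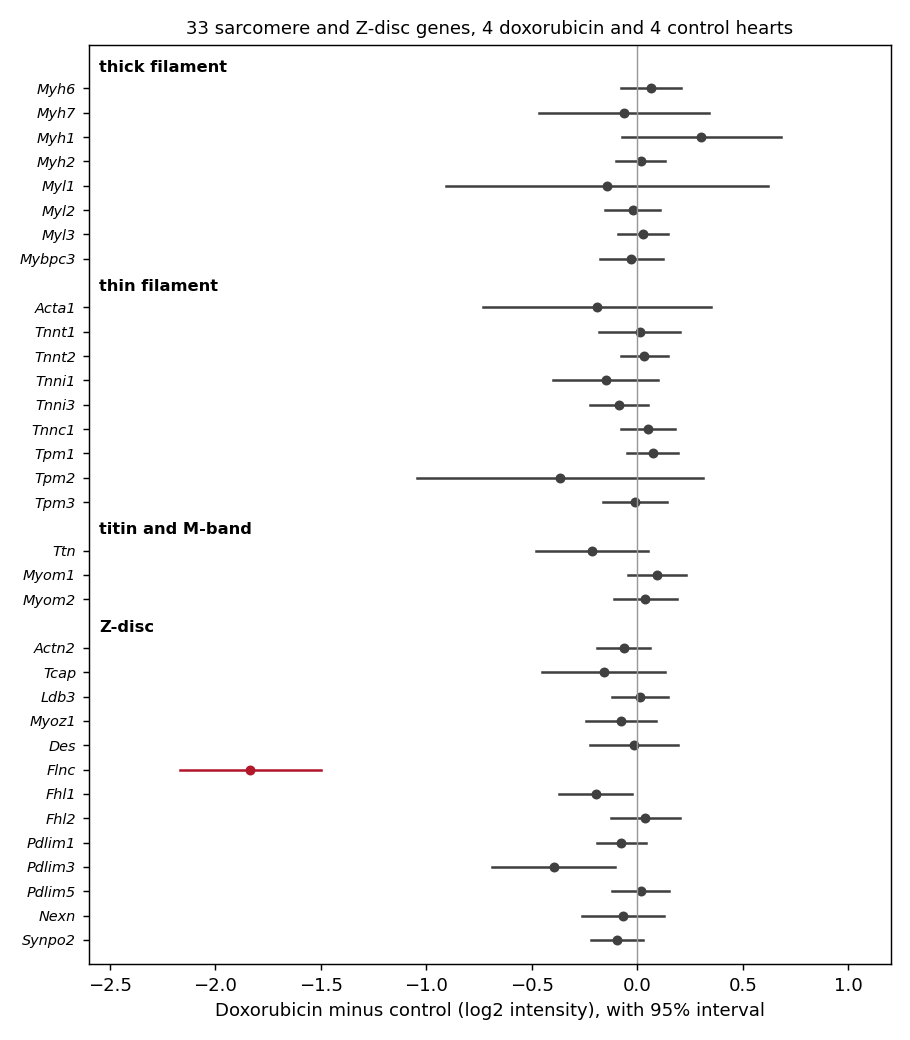
Difference between doxorubicin and control hearts (horizontal axis, log2 intensity, doxorubicin minus control) for the 33 measured genes, grouped by place in the sarcomere. Points are limma estimates, lines their 95% intervals, and red marks an adjusted p under 0.05. Flnc lies at -1.83 and all other points lie between -0.40 and 0.30.

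The promoter of Flnc is shown because Flnc carries the result, with that of the skeletal actin gene Acta1, a classic muscle promoter, for comparison. Fhl1 is shown at both of its listed starts, because its probe sets differ in the values given further on. Each window runs from 250 bases before to 50 bases after a transcription start in the RefSeq annotation of GRCr8, 5′ to 3′ on the gene's strand. Capitals mark matches on either strand to the CArG box (the site of serum response factor), the MEF2 site, the M-CAT element CATTCC and the TATA box TATAAA. The windows are Flnc at chr4:58999297-58999596 on the plus strand, Acta1 at chr19:68784145-68784444 on the minus strand, and Fhl1 at chrX:139638246-139638545 and chrX:139645222-139645521 on the plus strand.
Flnc: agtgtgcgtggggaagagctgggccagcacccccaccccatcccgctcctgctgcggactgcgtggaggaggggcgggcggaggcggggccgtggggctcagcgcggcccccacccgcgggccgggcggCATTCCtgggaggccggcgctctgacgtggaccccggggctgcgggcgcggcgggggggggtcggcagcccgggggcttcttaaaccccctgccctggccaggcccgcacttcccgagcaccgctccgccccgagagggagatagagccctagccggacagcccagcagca
Acta1: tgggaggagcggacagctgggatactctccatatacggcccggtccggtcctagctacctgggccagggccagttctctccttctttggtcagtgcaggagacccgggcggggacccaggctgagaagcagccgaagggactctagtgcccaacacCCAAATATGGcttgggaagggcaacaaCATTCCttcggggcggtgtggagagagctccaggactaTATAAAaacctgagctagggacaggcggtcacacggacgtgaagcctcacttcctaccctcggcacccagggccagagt
Fhl1, first start: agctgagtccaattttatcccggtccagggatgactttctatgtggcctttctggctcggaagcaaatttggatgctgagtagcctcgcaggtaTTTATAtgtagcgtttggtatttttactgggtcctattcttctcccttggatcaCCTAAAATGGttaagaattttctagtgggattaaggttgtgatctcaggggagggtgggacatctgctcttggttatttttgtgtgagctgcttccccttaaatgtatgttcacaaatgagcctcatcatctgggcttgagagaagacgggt
Fhl1, second start: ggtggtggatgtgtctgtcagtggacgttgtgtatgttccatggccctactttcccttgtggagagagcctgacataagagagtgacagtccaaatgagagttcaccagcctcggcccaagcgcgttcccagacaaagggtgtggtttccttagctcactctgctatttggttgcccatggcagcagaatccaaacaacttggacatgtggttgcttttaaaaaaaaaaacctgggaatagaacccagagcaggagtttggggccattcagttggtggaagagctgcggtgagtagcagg

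The Flnc window is 77.0% G and C and holds 1 M-CAT element and no CArG box, MEF2 site or TATA box. The Acta1 window holds a CArG box, an M-CAT element and a TATA box. Among 29 of the 34 genes that have a window in the table, 6 hold a CArG box in at least 1 window (20.7%), against 1.8% of 27457 genes with a window. A MEF2 site was found in 6 of the 29 (20.7%, against 3.7% of all genes) and an M-CAT element in 10 (34.5%, against 15.0%). The TATA box was found in 7 (24.1%, against 15.3%), the AP-1 pattern TGANTCA in 2 (6.9%, against 8.0%) and the E-box CANNTG in 22 (75.9%, against 73.2%). These are letter matches in a short window, counted on both strands, and no match was tested as a binding site. In the printed windows no match overlaps another.

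Filamin C cross-links actin and ties the Z-disc and the intercalated disc to the membrane. Flnc stood at 8.21, 8.06, 8.23 and 8.29 log2 intensity in doxorubicin hearts 1 to 4, against 10.49, 9.72, 9.81 and 10.11 in control hearts 1 to 4. All doxorubicin hearts lay below all control hearts. By the probe set that stands for each gene, Flnc was the 1 gene of 33 whose groups did not overlap. Of all genes, 10.4% had groups that did not (4.69% with doxorubicin hearts below and 5.75% with them above). The group means were 8.20 ± 0.10 log2 in doxorubicin hearts and 10.03 ± 0.35 log2 in control hearts (SD, n = 4 each), with a 95% interval of the difference of -2.17 to -1.50. The doxorubicin hearts lay close together, and the control hearts spread more widely, with control 1 the highest.

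The second Flnc probe set gave the same picture. It read 7.62, 7.49, 7.94 and 7.67 log2 in doxorubicin hearts, against 9.66, 8.75, 8.95 and 9.13 log2 in control hearts, again with control 1 highest and no overlap. Its difference was -1.44 (SE 0.18, limma adjusted p = 0.00247). Flnc passed the test under each of the 21 alternatives run, with differences of -1.98 to -1.44 and adjusted p up to 0.0219, and without control 1 its difference was -1.68.

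Among the array measures, the level of the 18 hybridization controls (foreign transcripts spiked in before hybridization) moved with the groups. It was 10.02 ± 0.08 log2 on doxorubicin arrays and 10.32 ± 0.17 log2 on control arrays (SD, n = 4 each; exact permutation p = 0.0286, the smallest that 4 against 4 allows, adjusted p = 0.114 over 4 measures). All doxorubicin arrays (9.97 to 10.13 log2) lay below all control arrays (10.21 to 10.57 log2). The level and the treatment therefore cannot be told apart in these arrays, with or without a covariate. With that level as a covariate Flnc stood at -1.98 (limma adjusted p = 0.0219), against -1.83 without it. The second Flnc probe set stood at -1.57 with the covariate and no longer passed (limma adjusted p = 0.144). The gap between 3′ and 5′ probe sets of GAPDH, a measure of RNA integrity, was 0.18 ± 0.01 log2 in doxorubicin and 0.19 ± 0.07 log2 in control hearts. Correlations between arrays over all probe sets were 0.988 to 0.996 within groups and 0.985 to 0.993 between groups, and no pair of arrays held identical values.

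The tissue was heart muscle by its markers. All 12 genes of working cardiomyocytes were measured and none changed, and their summed linear intensity was 112748 to 117408 in doxorubicin hearts and 111832 to 118935 in control hearts. Of 11 measured markers of skeletal muscle none changed, 4 had a mean under 4.16 log2, below which the dimmest 25% of probe sets lie, and their sums were 315 to 380 and 286 to 359 in doxorubicin and control hearts. Atrial markers differed between single hearts, with sums over 7 genes of 2943 to 22083 in doxorubicin and 2513 to 12142 in control hearts, and none of the 7 changed. None of 8 fibroblast, 9 macrophage or 8 fat markers changed, and of 6 measured endothelial markers Tie1 alone rose. Their sums in doxorubicin hearts were 13373 to 17793 for fibroblasts, against 9887 to 16178 in control hearts, and 1020 to 1285 for macrophages, against 847 to 1098. For fat they were 4122 to 6978 in doxorubicin and 3985 to 4729 in control hearts, and for endothelium 2824 to 3284 in doxorubicin and 2904 to 3158 in control hearts. All 9 macrophage markers had positive differences, with a median of 0.19 log2, and 2 had an unadjusted limma p under 0.05. In whole hearts, fewer cells of a type and less RNA per cell cannot be told apart.

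Among the other Z-disc genes, Pdlim3 and Fhl1 had unadjusted p-values under 0.05 without passing. Pdlim3 encodes a PDZ and LIM protein that binds alpha-actinin. It read 9.66, 9.51, 9.74 and 10.02 log2 in doxorubicin hearts, against 10.35, 10.20, 10.14 and 9.83 log2 in control hearts, so the groups overlapped through doxorubicin 4 and control 4. The difference was -0.40 (SE 0.13, limma adjusted p = 0.192), and it lay between -0.50 and -0.32 when single hearts were left out, without passing in any case.

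Fhl1 encodes a protein of LIM domains that binds titin and takes part in load sensing. By its brightest probe set it read 11.87, 11.90, 11.77 and 11.96 log2 in doxorubicin hearts, against 11.94, 12.15, 12.21 and 11.98 log2 in control hearts. The groups overlapped, through doxorubicin 4 and control 1, and the difference was -0.20 (SE 0.08, limma adjusted p = 0.293). The dimmest of its 3 probe sets differed from the other 2, as given below.

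The remaining 10 Z-disc genes had differences of -0.16 to 0.04. Alpha-actinin Actn2, which anchors thin filaments in the Z-disc, stood at -0.06 (95% interval -0.19 to 0.06), and desmin, Des, the intermediate filament around the Z-disc, at -0.02 (-0.22 to 0.19). Tcap, which caps the titin ends in the Z-disc, stood at -0.16 (-0.45 to 0.13). Ldb3, Pdlim1 and Pdlim5, which like Pdlim3 belong to the PDZ and LIM family, stood at 0.01, -0.08 and 0.02. The LIM protein gene Fhl2 stood at 0.04, nexilin Nexn at -0.07, the filamin-binding Synpo2 at -0.10 and the calsarcin gene Myoz1 at -0.08. The median difference of the 13 Z-disc genes was -0.08 log2, and 10 of the 13 differences were negative, against 6842 of 14217 over all genes. A shift of the Z-disc genes as a group was not tested.

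**Figure D2:**
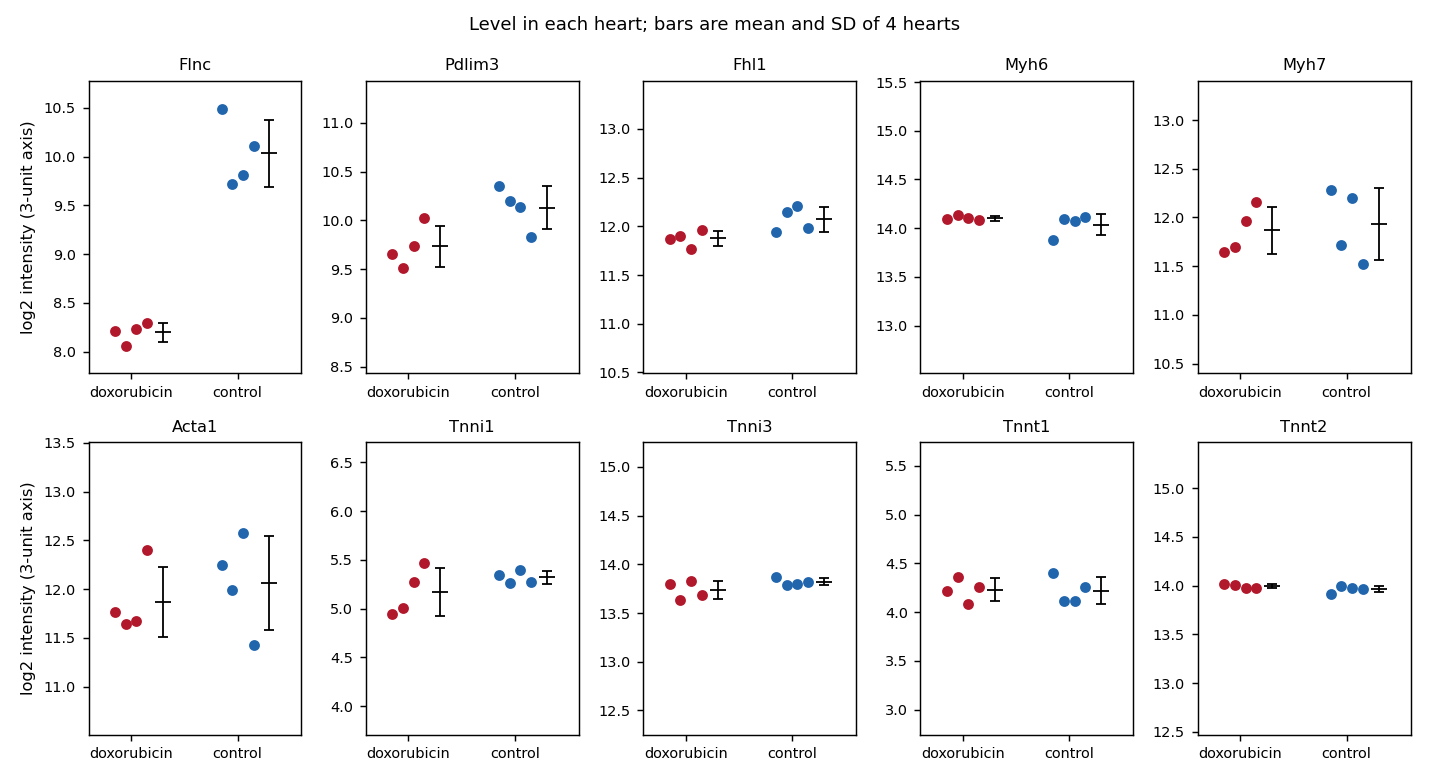
Log2 intensity in each heart (vertical axis, 3 log2 units tall in every panel) for Flnc, for the genes with an unadjusted p under 0.05 and for the isoform genes. Points are single hearts and bars are mean and SD of 4 hearts. Flnc groups are apart, at 8.06 to 8.29 in doxorubicin and 9.72 to 10.49 in control hearts, and the groups of the other 9 genes overlap.

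None of the 8 thick filament genes passed the test by the probe set that stands for it. A further Myh1 probe set that passed is given below. Myh6, the main myosin heavy chain of the adult rat ventricle, read 14.09, 14.14, 14.10 and 14.08 log2 in doxorubicin hearts, against 13.88, 14.09, 14.07 and 14.11 log2 in control hearts. Myh7, the slow isoform, read 11.65, 11.70, 11.96 and 12.16 log2 in doxorubicin hearts, against 12.28, 11.72, 12.20 and 11.52 log2 in control hearts. Myh6 was nearly level over 7 hearts, with control 1 lower, and Myh7 varied within both groups, high in doxorubicin 4, control 1 and control 3. The differences were 0.07 (SE 0.06) for Myh6 and -0.06 (SE 0.18) for Myh7. The ventricular light chain genes Myl2 and Myl3 stood at -0.02 and 0.03, and the cardiac myosin-binding protein C gene Mybpc3 at -0.03, each with a 95% interval inside 1.25-fold. A second, dimmer Myl2 probe set stood at -0.43 (95% interval -0.70 to -0.16, limma adjusted p = 0.129) and did not pass. In it all doxorubicin hearts lay below all control hearts. A second Myh6 probe set stood at 0.15 (95% interval -0.04 to 0.34, limma adjusted p = 0.522) and did not pass either. There all doxorubicin hearts lay above all control hearts.

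The fast skeletal genes of the thick filament were of less use. Myh2 lay below the level of the dimmest 25% of probe sets in both groups (means of 3.85 log2 in doxorubicin and 3.84 log2 in control hearts). Myl1, the fast skeletal essential light chain, averaged 5.44 ± 0.65 log2 in doxorubicin hearts and 5.59 ± 0.56 log2 in control hearts (SD, n = 4 each). The groups overlapped almost wholly, with a difference of -0.14 and a 95% interval of -0.91 to 0.62.

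The 9 measured thin filament genes did not pass either by the probe sets that stand for them. A further Tpm1 probe set that passed is given below. Cardiac troponin T, Tnnt2, which ties troponin to tropomyosin, read 14.02, 14.01, 13.98 and 13.98 log2 in doxorubicin hearts, against 13.92, 14.00, 13.98 and 13.97 log2 in control hearts. Cardiac troponin I, Tnni3, the inhibitory subunit, read 13.80, 13.63, 13.83 and 13.68 log2 in doxorubicin hearts, against 13.87, 13.79, 13.80 and 13.82 log2 in control hearts. Both genes varied little, and their groups overlapped, with differences of 0.03 (SE 0.05) and -0.09 (SE 0.06). Tnnc1, the calcium-binding subunit, stood at 0.05, and the tropomyosin genes Tpm1 and Tpm3 at 0.07 and -0.0090.

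The slow and fetal isoforms of the thin filament did not pass the test. Tnni1 read 4.94, 5.01, 5.27 and 5.47 log2 in doxorubicin hearts, against 5.35, 5.26, 5.40 and 5.27 log2 in control hearts, and Tnni1 overlapped with doxorubicin 1 and 2 lowest. Tnnt1, the slow skeletal troponin T, read 4.22, 4.36, 4.08 and 4.26 log2 in doxorubicin hearts, against 4.40, 4.11, 4.11 and 4.26 log2 in control hearts, close to the dim limit of 4.16. Acta1, skeletal actin, read 11.77, 11.64, 11.67 and 12.40 log2 in doxorubicin hearts, against 12.25, 11.99, 12.58 and 11.43 log2 in control hearts. Its lowest and its highest reading were both from control hearts. The differences were -0.15 (SE 0.11), 0.01 (SE 0.09) and -0.19 (SE 0.24). A second, dimmer Tnni1 probe set stood at -0.30 (95% interval -0.54 to -0.06, limma adjusted p = 0.235) and did not pass.

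The balance of isoforms within each heart was compared between the groups by exact permutation over the 70 ways of drawing 4 of 8 hearts. The log2 ratio of Myh7 to Myh6 was lower in doxorubicin hearts by 0.13 (shift -0.13; exact permutation p = 0.657), that of Tnni1 to Tnni3 shifted by -0.06 (exact permutation p = 0.629) and that of Tnnt1 to Tnnt2 by -0.02 (exact permutation p = 0.857). Adjusted over the 3 pairs, each p was 0.857. Tnnt1 lay close to the dim limit of 4.16 log2, and Tnni3 and Tnnt2 lay within 1 log2 unit of the array maximum. Whether such levels understate a shift of these ratios was not tested. The pair of Acta1 and Actc1 could not be formed. The spread of the Myh7 to Myh6 ratio over hearts was larger than the shift, with an SD of 0.25 in doxorubicin and 0.45 in control hearts (n = 4 each). Without doxorubicin 4, the shift of Tnni1 to Tnni3 was -0.18 (exact permutation p = 0.0286, not adjusted over the pairs).

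Titin and the M-band genes did not pass the test. Titin, Ttn, read 11.51, 11.77, 11.58 and 11.27 log2 in doxorubicin hearts, against 11.47, 11.84, 11.84 and 11.84 log2 in control hearts. The 3 control hearts other than control 1 lay above all doxorubicin hearts, and control 1 lay among them. The difference was -0.21 (SE 0.12, limma adjusted p = 0.499), and -0.30 without control 1, which did not pass. The myomesin genes Myom1 and Myom2, which cross-link thick filaments in the M-band, stood at 0.09 and 0.04.

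The intervals show how large a change these hearts could hide in the 1 probe set that stands for each gene. Some further probe sets, among them ones of Myl2, Fhl1 and Tpm1, had intervals that reached further. Of the 32 genes that did not pass, 22 had a 95% interval, not adjusted for the number of genes, that lay within 1.25-fold in both directions, 27 within 1.5-fold and 31 within 2-fold. Tpm2 was the exception to the last, with an interval of -1.05 to 0.31. Myh1, Myl1, Acta1 and Pdlim3 had intervals that reached past 1.5-fold. The 7 genes within 1 log2 unit of the array maximum (14.42 log2 on the array where it was lowest) were Myh6, Myl2, Myl3, Tnnt2, Tnni3, Tnnc1 and Tpm1, and their differences were at most 0.09 in size. Whether probes so bright understate a change was not tested.

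Several genes have more than 1 probe set, and these did not always move together. Of the 43 further probe sets of 16 genes, 3 fell and 1 rose, where 1.52% of all probe sets fell, 0.689% rose and 2.21% changed in either direction. They belonged to Flnc, Fhl1, Myh1 and Tpm1, and apart from Flnc they went against or beyond the probe set that stands for the gene. These probe sets were picked out after their values were seen, and the difference between probe sets of 1 gene was not tested.

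The dim probe set of Fhl1 read 4.75, 4.43, 4.51 and 4.46 log2 in doxorubicin hearts, against 6.25, 5.60, 5.40 and 5.62 log2 in control hearts. The groups did not overlap, and all doxorubicin hearts lay near the dim limit. It fell by 1.18 (SE 0.16, limma adjusted p = 0.00490), while the second Fhl1 probe set stood at -0.16. With the mean of the 3 probe sets Fhl1 was called lower (-0.51, limma adjusted p = 0.00384).

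Myh1 is known as a fast skeletal myosin heavy chain, and its 5 probe sets read bright in these hearts although Myh4, a neighbour in function, had a mean of 3.64 log2 in both groups. The name rests on the platform annotation alone, and myosin heavy chain genes are close in sequence. The probe set that stands for it read 11.36, 11.41, 11.17 and 11.47 log2 in doxorubicin hearts, against 10.49, 11.30, 11.09 and 11.32 log2 in control hearts, a difference of 0.30 that did not pass. The dimmest of the 5 read 8.78, 8.70, 8.42 and 8.96 log2 in doxorubicin hearts, against 9.73, 10.03, 10.10 and 10.04 log2 in control hearts. It fell by 1.26 (SE 0.12, limma adjusted p = 5.18e-04) with no overlap, and the other 3 stood at 0.20 to 0.27 without passing, 1 of them with all doxorubicin hearts above all control hearts.

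Tpm1, the main tropomyosin of the heart, had 7 probe sets. Of these, 1 probe set read 8.07, 7.69, 7.97 and 7.64 log2 in doxorubicin hearts, against 6.09, 7.28, 6.89 and 6.71 log2 in control hearts. The groups did not overlap, and it rose by 1.10 (SE 0.22, limma adjusted p = 0.0306). The call was lost without any 1 of the 4 doxorubicin hearts and without control 3 or control 4 (differences of 1.02 to 1.16, adjusted p 0.0550 to 0.107). The other 6 stood between -0.07 and 0.07.

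**Figure D3:**
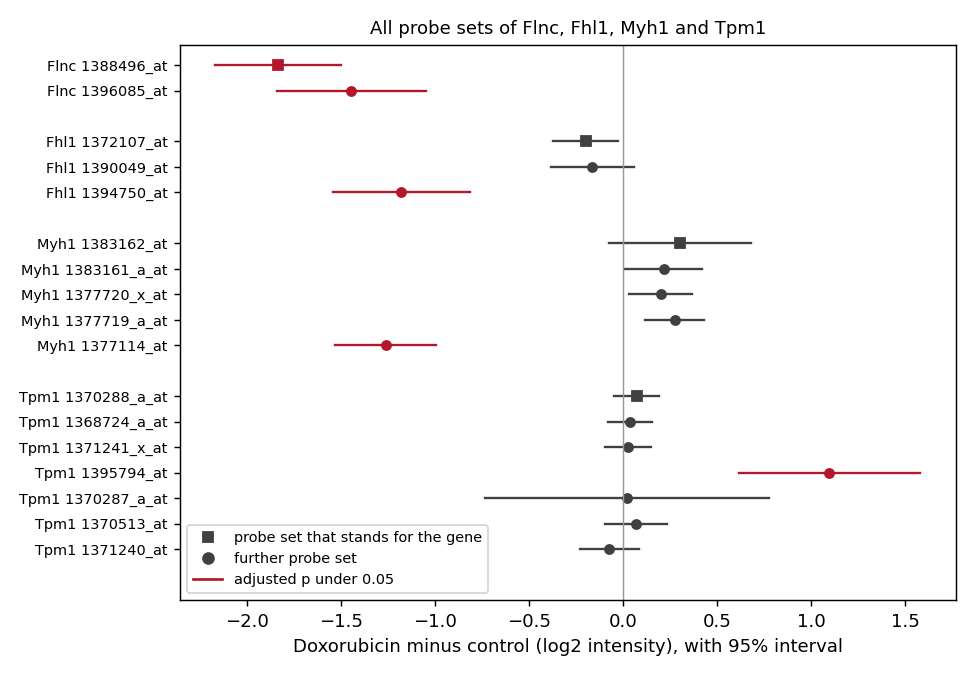
Difference between doxorubicin and control hearts (horizontal axis, log2 intensity) for every probe set of Flnc, Fhl1, Myh1 and Tpm1, with 95% intervals. Squares are the probe sets that stand for a gene, circles the further ones, and red marks an adjusted p under 0.05. Both Flnc probe sets are low, while 1 probe set each of Fhl1 (-1.18), Myh1 (-1.26) and Tpm1 (1.10) stands apart from the others of its gene.

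The level of the genes was steady from heart to heart. The SD within groups had a median of 0.09 log2 over the 33 genes, against 0.12 over all genes and 0.07 over the 12 working cardiomyocyte markers. The part of brightness in these SDs was not tested. Among the 33 genes the SD was smallest for Tnnt2 (0.03), Myh2 (0.04), which was dim, and Pdlim1 (0.04). It was largest for Myl1 (0.61), Tpm2 (0.54) and Acta1 (0.43). The median deviation of the 33 genes from their own means was between -0.03 and 0.0010 log2 in each doxorubicin heart and between 0.0030 and 0.03 log2 in each control heart.

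Tpm2, a tropomyosin gene also strong in smooth muscle, read 8.22, 8.11, 8.18 and 9.31 log2 in doxorubicin hearts, against 8.50, 9.14, 9.34 and 8.29 log2 in control hearts. Doxorubicin 4, control 2 and control 3 were high and the other 5 low, so the difference of -0.37 (SE 0.30) was smaller than the spread within groups. The same 3 hearts were the highest for a Tpm1 probe set (7.56 in doxorubicin 4, and 7.40 and 7.59 in control 2 and 3) and for a Synpo2 probe set (6.18 in doxorubicin 4, and 6.75 and 7.06 in control 2 and 3). The mean level of the smooth muscle genes Myh11, Tagln, Cnn1 and Acta2 and the valve and matrix gene Postn, a set picked after their values were seen, was 6.83, 6.70, 6.80 and 8.03 log2 in doxorubicin hearts 1 to 4, against 6.49, 7.81, 8.02 and 6.64 log2 in control hearts 1 to 4. With that mean as a covariate, chosen after the data were seen, the Tpm2 difference was -0.26 and did not pass. The other 6 of the 10 smooth muscle and pericyte markers did not share the pattern. Doxorubicin 4 was the lowest doxorubicin heart for Rgs5 (9.41 log2), Smtn (8.24 log2) and Notch3 (4.72 log2), and Lmod1 read 4.95 to 5.07 log2 in doxorubicin and 4.91 to 5.09 log2 in control hearts. Of the 10 markers none changed and none was dim, and their summed intensity, to which Des adds most, was 5845 to 6671 in doxorubicin and 5818 to 6986 in control hearts.

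Markers of other cell types moved with the same hearts. The mean level of the 8 fibroblast markers, which include Postn, was 10.18 log2 in doxorubicin 4 and 9.43 to 9.50 log2 in the other doxorubicin hearts, against 9.91 and 9.98 log2 in control 2 and control 3 and at most 9.25 log2 in the other control hearts. The 3 highest hearts were thus again doxorubicin 4, control 2 and control 3. That of the 7 atrial markers was 9.25, 8.76, 7.67 and 10.42 log2 in doxorubicin hearts, against 7.18, 9.84, 9.15 and 7.60 log2 in control hearts, highest in doxorubicin 4 and control 2. Fat markers were highest in the same pair of hearts, at 8.14 log2 in doxorubicin 4 and 6.79 log2 in control 2. With the atrial level as a covariate the Tpm2 difference was -0.59 and did not pass, and the part of fibroblast and fat markers in it was not tested.

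**Figure D4:**
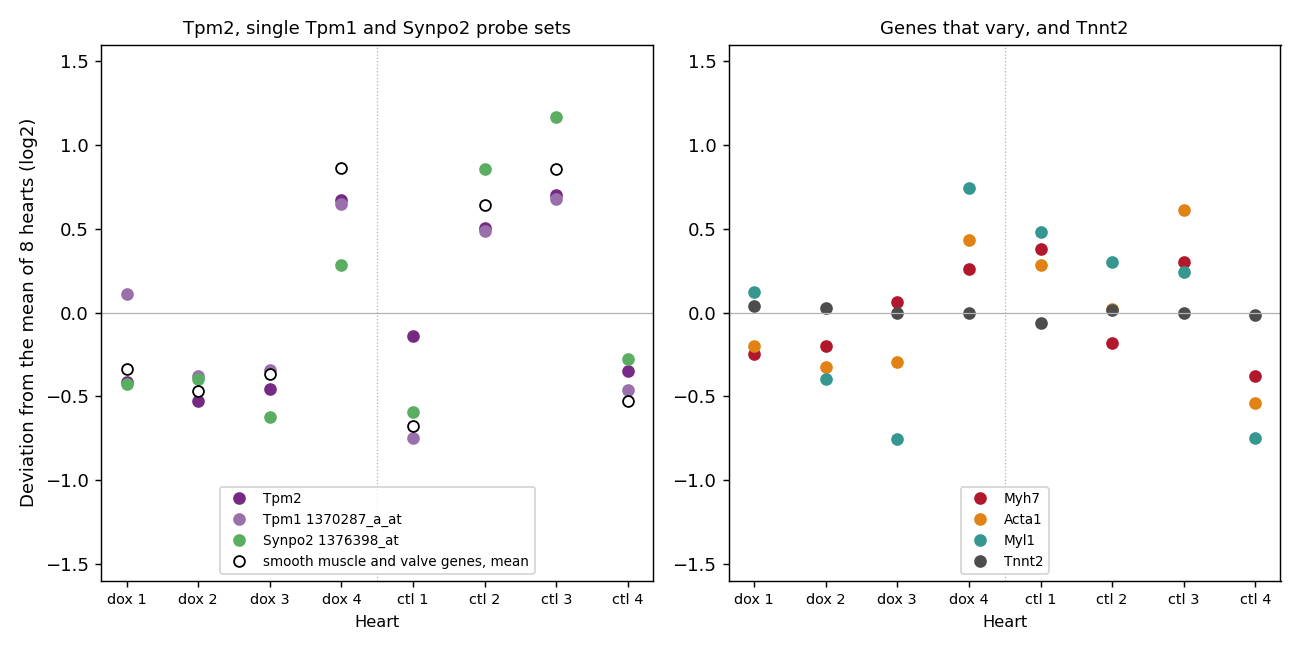
Deviation of each heart from the mean of the 8 hearts (vertical axis, log2) for Tpm2, 1 probe set each of Tpm1 and Synpo2 and the mean of 5 smooth muscle and valve genes (open circles) on the left, and for Myh7, Acta1, Myl1 and Tnnt2 on the right. Doxorubicin hearts (dox) stand left of control hearts (ctl). Doxorubicin 4, control 2 and control 3 are high on the left, and Tnnt2 has a range of 0.10 log2 over all hearts.

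The rest of the sarcomere machinery was read from a second list of 51 genes, of which 44 were measured. The list was chosen with earlier results of these data known, so its shares, here and below, cannot be read as enrichment. It held 6 genes that fell and 2 that rose (18.2%, against 2.97% of all genes), with a median difference of -0.02 log2. Those that fell were Klhl40, a stabilizer of thin filament proteins (-3.33, SE 0.19), Xirp1, which encodes the filamin C partner Xin (-2.07, SE 0.19), Myot, which encodes the filamin C and alpha-actinin partner myotilin (-1.20, SE 0.14), and Lmod2, a leiomodin at the thin filament ends (-0.64, SE 0.08). Bag3, a co-chaperone that clears damaged filamin, fell by 0.34 (SE 0.06) and the LIM protein gene Csrp3 by 0.31 (SE 0.05). Lmod3, another leiomodin, rose by 1.03 (SE 0.09) and Trim54, a muscle ubiquitin ligase, by 0.39 (SE 0.06). The adjusted p-values of the limma fit were 3.04e-05 for Klhl40 to 0.0236 for Bag3.

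These 8 genes had groups that did not overlap. In the whole list 9 of 44 genes lay below and 4 above without overlap, against 4.69% and 5.75% of all genes and 10.4% in either direction. Lmod2, for instance, read 11.97, 12.17, 11.96 and 12.06 log2 in doxorubicin hearts, against 12.62, 12.55, 12.67 and 12.87 log2 in control hearts. The other 5, named after their values were seen, did not pass: the myofibril assembly gene Nrap stood at -0.35 (limma adjusted p = 0.0511), Klhl41, a relative of Klhl40, at -0.46 (0.0557), Ankrd1, a titin-binding ankyrin repeat protein gene, at -0.23 (0.0717), the muscle methyltransferase gene Smyd1 at 0.23 (0.141) and the actin-capping gene Capzb at 0.13 (0.365). Bag3 lost the call without any 1 of 6 hearts, namely doxorubicin 1, 2 and 4 and control 1, 3 and 4 (adjusted p 0.0513 to 0.0821). A second Lmod3 probe set stood at 0.21 and did not pass. With the level of the hybridization controls as a covariate only Klhl40 and Xirp1 of the 8 passed, and the differences of the other 6 lay between -1.26 and 0.98, each with the sign it had without the covariate.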

How the data were processed

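RNA of 8 rat hearts was read on 1 Affymetrix array each. The deposited table gives 1 intensity for each probe set and array. The authors computed it with RMA, per the submitters' processing notes, in a version not given in the sources used here. The intensities are linear (array medians 29.9 to 31.0), so log2 was taken. RMA equalizes the arrays' distributions, which hides any shift common to most genes. Arrays carry no sequencing depth: the number of arrays limits the precision, and no detection calls were used.

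After removal of 57 AFFX controls, 31042 probe sets were fitted with limma 3.58.1 in R 4.3.3 (lmFit, eBayes, no covariate; two-sided; Benjamini-Hochberg over all probe sets; called under 0.05). Differences are doxorubicin minus control. The annotation names 1 gene on 20826 probe sets, more than 1 on 436 and no gene on 9780. Of the first kind, 20758 were matched through the gene ID in RefSeq (GRCr8). Probe sets naming more than 1 gene were left out of the gene counts. All 34 listed genes are accounted for; values per heart are given for genes with an unadjusted p under 0.05, for isoform pairs and for probe sets chosen after their values were seen. The 3 largest and 3 smallest SDs are named, and up to 8 called genes of the second list; the marker lists are given as counts and sums. The members and lists were chosen with earlier results of these data known. The fit was tested on simulated data. Figures used Python 3.11.15 and matplotlib 3.10.9. Alternatives covered normalization, dim probe sets, variance model, array weights, choice of probe set, covariates, the replicate block and single hearts left out.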

Additional observations from a re-analysis of the deposited data

Results flagged for a closer look

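In 6 of 96 groups of 4 hearts examined, 1 heart stood far from the other 3, where chance alone flags about 1 group in 20. Control 1 read 13.88 log2 for Myh6, against 14.07 to 14.11 in the other control hearts. The same heart read 11.47 log2 for Ttn, while the other control hearts read 11.84. Doxorubicin 4 read 9.31 log2 for Tpm2, against 8.11 to 8.22 in the other doxorubicin hearts. Doxorubicin 2 read 9.82 log2 for Pdlim1, against 9.77 in the others, and 11.82 log2 for Nexn, against 11.62 to 11.65. Doxorubicin 3 read 7.24 log2 for Lmod3, against 6.95 to 6.98. None of these hearts decides the Flnc result.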

How the results depend on the processing

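Flnc fell under all 21 alternatives, and no gene of the 33 was called higher under any of them. When all probe sets of each gene were averaged, 2 genes were called, both lower (Flnc and Fhl1). The median difference of the genes moved to -0.0060 with median centring, -0.054 with the mean of probe sets, -0.0056 with the second highest probe set (16 genes) and 0.015 with the hybridization covariate. It was -0.048 to -0.016 without single hearts. In the second list, with 8 calls, single hearts left out gave 7 to 9. Quantile normalization, adjustment over genes and the smooth muscle and valve covariate each gave 10 (8 lower), and the eBayes trend, with and without the robust setting, and the averaged probe sets each gave 11 (9 lower). The filter on dim probe sets gave 9, and median centring, array weights and the atrial covariate gave 8. The second highest probe set gave 1 call, lower, and 0 higher, over fewer genes, and the hybridization covariate gave 2, both lower, and 0 higher. The cause of the change with the covariate was not tested. The labels do not say whether same-numbered hearts were paired. Those hearts did not deviate together (correlations -0.18 to 0.06), which cannot exclude pairing. The replicate block gave Flnc -1.83 (limma adjusted p = 0.00106). It gave 6 calls in the second list with 1 higher, as Trim54 (0.39, adjusted p = 0.0600) lost the call, with Csrp3, Bag3 and the Tpm1 probe set. Without single hearts the isoform shifts ran from -0.29 to 0.04 (Myh7 to Myh6), -0.18 to 0.036 (Tnni1 to Tnni3) and -0.07 to 0.05 (Tnnt1 to Tnnt2). With the hybridization covariate the further probe sets of Fhl1, Myh1, Tpm1 and Flnc lost the call at -1.32, -1.14, 1.22 and -1.57. The level of smooth muscle and valve genes as a covariate was added after seeing the data and changed no call among the 33 genes.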
